A study of Mus musculus with 14 samples.

Results

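The genes encoded by the mouse mitochondrial genome were followed in adipose tissue of 14 mice, with 1 library each. They were taken as every gene of the deposited table whose name begins with mt-, which gave 37 genes (13 mRNAs, 2 rRNAs and 22 tRNAs) of 54955 gene names or unnamed IDs. Each of the 37 had 1 row, so no rows had to be added up. The libraries came from C57BL/6 mice of both groups at 21 weeks after birth: 7 were labelled wild type (WT, replicates 3 to 9) and 7 carried the genotype label ko-dectin1 (KO, replicates 1 to 7). Dectin-1 is the β-glucan receptor of myeloid cells, and Clec7a is its gene. The labels name neither the fat depot, nor the design of the knockout allele, nor whether the WT mice were littermates, and whether polyadenylated RNA was selected or rRNA depleted is likewise not given in the sources used here. Values are in TPM, a share of transcripts corrected for gene length and scaled to a fixed total, and the read depth behind them is unknown, so the spread between libraries is the only measure of error.

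The 13 mitochondrial mRNAs encode core subunits of the respiratory chain and of ATP synthase, the inner-membrane machines that turn fuel oxidation into ATP. All other subunits of these complexes, and every protein that copies, transcribes or translates the mitochondrial genome, are made from nuclear genes. Both strands of the circular genome are transcribed into long precursors from which the tRNAs are cut, and this cutting releases the mRNAs and rRNAs. Fat cells use their mitochondria to oxidise fatty acids and to supply lipid synthesis, and brown fat cells also use them to make heat.

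Clec7a did not separate the groups. It had 6.94 ± 2.61 TPM in KO (from 4.02 to 10.5) against 10.99 ± 5.99 TPM in WT (from 4.1 to 18.9; n = 7 each, SD), a log2 fold change of -0.48 ± 0.33 (SE; limma adjusted p = 0.59). A value per gene cannot show whether deleted exons were read, so the groups are named here by their labels. Adipocyte markers were at 1 TPM or more in all 14 libraries for 10 of 10 genes, and their summed TPM ranged from 14567 to 64517 in KO and from 34733 to 66864 in WT. KO replicate 7 and WT replicates 4 and 7 stood apart from the rest: 8 B-cell markers summed to 7.85, 2.51 and 4.72 TPM there and to between 473.6 and 1939 TPM in the other 11 libraries.

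Stretches of mitochondrial sequence also lie in the nuclear chromosomes, and the deposited table has rows for such copies. Positions below are from GENCODE M21 on the genome build GRCm38, which need not be the authors' build; the deposited length equals the GENCODE length for 37 of 37 members. Searching all GENCODE transcripts with blastn (95% identity over 100 bases or more) found 11 annotated nuclear pseudogenes of 9 mRNAs and 0 of the rRNAs. The tRNAs are shorter than 100 bases, so this search could not find copies of them. On chromosome 1, 7 pseudogenes lie side by side at chr1:24611535-24616197, in the opposite direction to the mitochondrial genes and in the same order. They match chrM:6390-11042, from the last 483 bases of mt-Co1 into mt-Nd4, and the positions run in step to within 1 base over 4653 bases. On chromosome 2, Gm13339 matches part of mt-Nd2 at 96.7% identity. Gm13340 and Gm13341 match mt-Co1 and mt-Co2 from end to end, at 97.6% and 95.9% identity. The last copy, Gm4076 on chromosome 13, matches 954 bases of mt-Nd5 at 95.2% identity.

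The chromosome 1 copies are nearly letter-perfect. Gm28661 matches 681 bases of mt-Co2, Gm10925 matches 678 bases of mt-Atp6, Gm28437 matches 783 bases of mt-Co3, Gm10222 matches 294 bases of mt-Nd4l and Gm28439 matches 876 bases of mt-Nd4, all with 0 mismatches. Gm28438 differs from mt-Nd3 in 1 of 345 bases and Gm29216 differs from mt-Co1 in 1 of 483 bases. The whole of mt-Nd4l (chrM:9877-10173, plus strand) is shown because its first 294 bases are also the whole of Gm10222 (chr1:24612407-24612700, minus strand), so no base inside them can place a read in one or the other. Its capitals mark the 7 bases that it shares with the start of mt-Nd4.
mt-Nd4l: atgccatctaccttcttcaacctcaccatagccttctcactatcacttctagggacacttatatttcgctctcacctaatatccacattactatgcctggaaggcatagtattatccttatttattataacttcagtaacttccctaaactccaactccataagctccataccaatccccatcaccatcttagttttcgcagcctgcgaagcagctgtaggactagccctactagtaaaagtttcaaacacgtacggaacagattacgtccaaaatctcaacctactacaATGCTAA
The next 4 lines show the only mismatch in the aligned bases of mt-Nd3 and of the end of mt-Co1 with their chromosome 1 copies, in windows at chrM:9459-9491 and chr1:24613087-24613119, and at chrM:6390-6423 and chr1:24616155-24616188. Capitals mark the base that differs, which is T3C in mt-Nd3 and A1066T in mt-Co1, counted from the first base of each mitochondrial gene, with the mitochondrial base first.
mt-Nd3: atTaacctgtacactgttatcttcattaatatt
Gm28438: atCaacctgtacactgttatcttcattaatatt
mt-Co1: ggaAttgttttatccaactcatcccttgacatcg
Gm29216: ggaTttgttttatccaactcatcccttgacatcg
By contrast, the chromosome 2 copy of mt-Co1 has 37 mismatches over 1545 bases. A stretch of 90 bases (chrM:5772-5861, against chr2:22589114-22589203 on the minus strand) hold 5 of them, in capitals.
mt-Co1: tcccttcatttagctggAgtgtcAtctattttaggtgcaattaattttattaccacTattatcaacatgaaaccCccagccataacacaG
Gm13340: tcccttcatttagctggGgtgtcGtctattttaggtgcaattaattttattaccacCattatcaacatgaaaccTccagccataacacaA

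The members that share sequence with each other are shown for the same reason. mt-Atp8 and mt-Atp6, both subunits of ATP synthase, are read from 1 mRNA in overlapping frames. In mt-Atp8 (chrM:7766-7969, plus strand, 204 bases) capitals mark the 43 bases that also belong to mt-Atp6. mt-Atp8 lies within the span matched on chromosome 1, but no annotated pseudogene of it was found.
mt-Atp8: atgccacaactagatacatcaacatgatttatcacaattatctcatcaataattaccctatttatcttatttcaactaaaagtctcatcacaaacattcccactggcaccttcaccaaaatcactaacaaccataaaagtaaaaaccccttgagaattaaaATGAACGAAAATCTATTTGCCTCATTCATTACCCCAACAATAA
mt-Nd6 is the only mRNA of the opposite strand, and its end pairs with the end of mt-Nd5. Capitals in the last 60 bases of each gene (chrM:13506-13565, plus strand, and chrM:13552-13611, minus strand) mark the 14 paired bases. How the authors treated strand is not given in the sources used here, so reads from mt-Nd6 and from RNA antisense to it cannot be told apart.
mt-Nd5: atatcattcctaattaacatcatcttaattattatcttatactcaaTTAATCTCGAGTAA
mt-Nd6: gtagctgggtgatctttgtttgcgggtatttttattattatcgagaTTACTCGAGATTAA

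All 22 tRNAs were listed at 0 in all 14 libraries. They are 59 to 75 bases long, and of the 1031 rows of the table that are 75 bases or shorter, 4 were above 0 in any library. The tRNA values are therefore like those of other short genes in this table, and nothing is said here of tRNA levels. The other 15 members passed the filter of 1 TPM in at least 7 libraries.

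**Figure D1:**
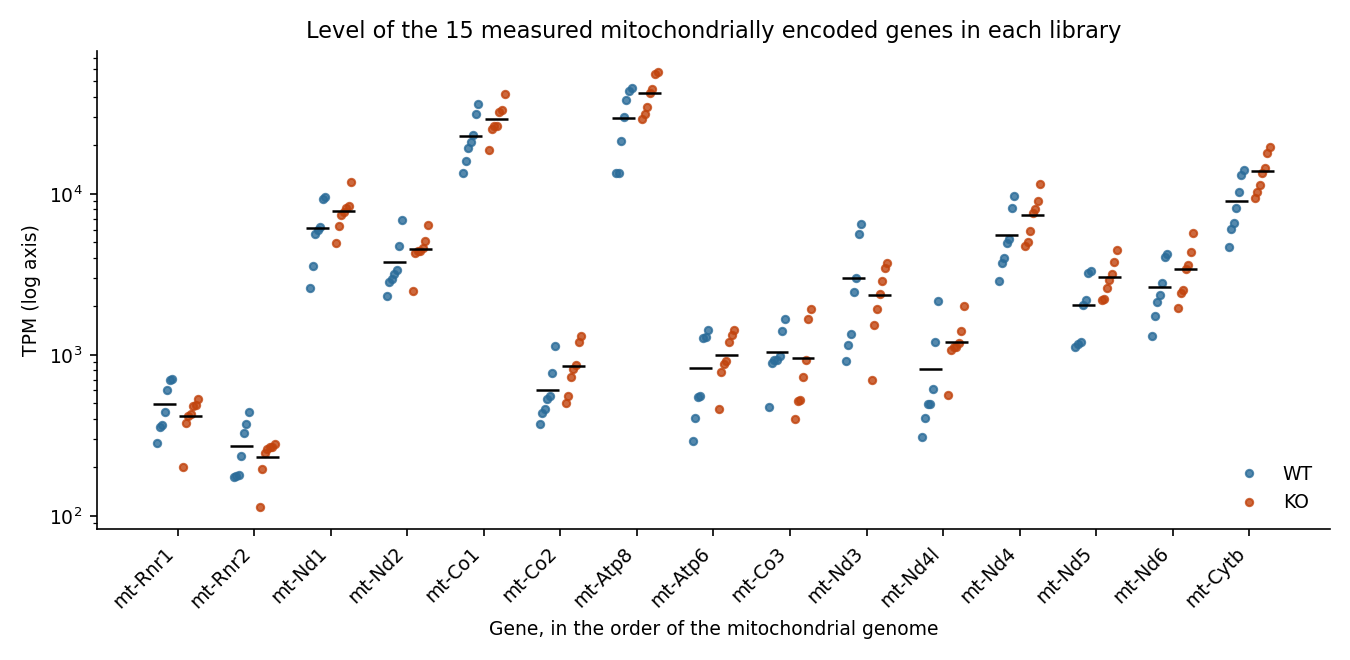
TPM on a log axis of the 2 rRNAs and 13 mRNAs in each of the 7 WT and 7 KO libraries, in genome order; points are libraries and black lines are group means. mt-Atp8, mt-Co1 and mt-Cytb stand highest, the rRNAs lowest, and the groups overlap for every gene.

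The mRNAs of ATP synthase and of cytochrome c oxidase held both the highest and some of the lowest rows. Without nuclear copies added, mt-Atp8 had the highest mean TPM of all genes in either group. In KO it ran from 29359 over a median of 42034 to 56709 TPM, and in WT from 13503 over 30195 to 45743 TPM. mt-Co1, the catalytic subunit of cytochrome c oxidase, ran from 18752 over 26500 to 41497 TPM in KO and from 13396 over 21081 to 36214 TPM in WT. The level of mt-Atp8 was above that of mt-Co1 in 12 of 14 libraries. mt-Atp6, the membrane subunit that carries protons, stood at only 997 ± 337 TPM in KO and 826 ± 480 TPM in WT (n = 7 each, SD), although it shares an mRNA with mt-Atp8. mt-Co2, which takes electrons from cytochrome c, stood at 854 ± 303 and 608 ± 262 TPM. mt-Co3, another core subunit of the oxidase, stood at 955 ± 601 and 1039 ± 384 TPM. mt-Atp6, mt-Co2, mt-Co3 and mt-Nd4l are the 4 genes with a copy that covers all but 1 to 3 of their bases without a mismatch.

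Complex I, the NADH dehydrogenase that feeds electrons into the chain, has 7 mitochondrial subunits. mt-Nd1, at the joint between the membrane arm and the arm that takes up electrons, stood at 7844 ± 2164 TPM in KO and 6103 ± 2601 TPM in WT (n = 7 each, SD). mt-Nd4, a proton-pumping subunit, stood at 7407 ± 2424 and 5529 ± 2510 TPM, and the levels of these 2 genes did not keep 1 order (mt-Nd1 above mt-Nd4 in 9 of 14 libraries). mt-Nd2 and mt-Nd5, the other pumping subunits, stood at 4532 ± 1158 and 3053 ± 839 TPM in KO. In WT they stood at 3755 ± 1577 and 2046 ± 954 TPM. mt-Nd6, the subunit from the opposite strand, stood at 3430 ± 1308 TPM in KO and 2651 ± 1108 TPM in WT. mt-Nd3 ran from 698 to 3722 TPM in KO and from 917 to 6509 TPM in WT, and mt-Nd4l from 560 to 2005 and from 309.9 to 2166 TPM. mt-Cytb, the only mitochondrial subunit of complex III, which passes electrons from ubiquinol to cytochrome c, was below mt-Co1 and above mt-Nd1 in 14 of 14 libraries. It ran from 9387 over 13541 to 19599 TPM in KO and from 4668 over 8205 to 14009 TPM in WT.

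The rRNAs had the lowest mean levels of the 15. mt-Rnr1, the RNA of the small mitochondrial ribosomal subunit, stood at 418 ± 109 TPM in KO and 495 ± 175 TPM in WT (n = 7 each, SD). mt-Rnr2, of the large subunit, stood at 232 ± 59 and 272 ± 108 TPM, below mt-Rnr1 in 14 of 14 libraries, and mt-Rnr1 lay below mt-Co2 in 13.

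Library by library, the mRNAs were high or low together. KO replicate 2 had the highest KO value for 11 of 13 mRNAs and KO replicate 3 the lowest for 12. Among WT libraries replicate 4 was highest for 9 and replicate 3 lowest for 11. The mRNAs are read from shared precursors and each TPM is a share of the same total, so these counts are not 13 separate observations.

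**Figure D2:**
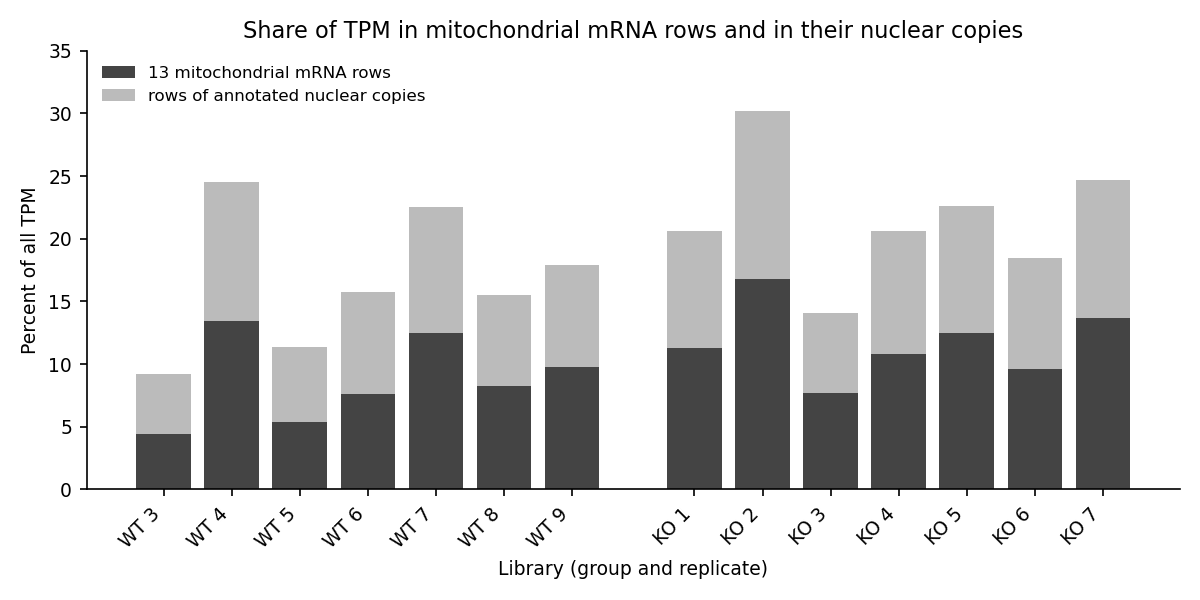
Percent of all TPM of a library in the 13 mitochondrial mRNA rows (dark) and in the annotated nuclear copies (light), stacked, for 7 WT and 7 KO libraries. The copies hold about as much as the mRNA rows in every library, and WT replicates 3 and 5 have the shortest bars.

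The rows of the nuclear copies held nearly as much TPM as the mitochondrial rows. The 13 mRNAs took 11.8% ± 2.9 of all TPM in KO and 8.78% ± 3.36 in WT (n = 7 each, SD), and the copies another 9.84% ± 2.13 and 7.90% ± 2.21. With the copies, mitochondrial sequence came to between 14.04% and 30.2% of a KO library and between 9.21% and 24.5% of a WT library. The copies took 45.7% ± 1.55 of this sum in KO and 48.2% ± 3.39 in WT. Gm28661 alone stood at 30741 ± 6905 TPM in KO, while the gene it copies, mt-Co2, stood at 854 TPM.

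How a gene's TPM was divided between the mitochondrial row and the copy differed from gene to gene. The mitochondrial row held 2.67% ± 0.54 of the sum for mt-Co2 in KO and 2.67% ± 0.68 in WT (n = 7 each, SD). For mt-Co3 it held 3.87% ± 2.02 and 4.46% ± 1.06, for mt-Atp6 5.48% ± 1.77 and 6.15% ± 2.64, and for mt-Nd4l between 6.10% and 14.8% in KO and between 5.84% and 19.9% in WT. mt-Nd3, with its single differing base, kept 22.7% ± 5.6 in KO and 27.1% ± 12.5 in WT, from 15.1% to 50.6% over all libraries. mt-Co1 kept 76.5% ± 4.4 and 71.5% ± 7.2. Its copy Gm29216 matches only 483 of the 1545 bases of mt-Co1. TPM is corrected for length, so this is a part of summed TPM and not of reads. For mt-Nd4 the pattern was the reverse: Gm28439, with 876 bases and 0 mismatches, was listed at 0 in all 14 libraries, so mt-Nd4 held all of the sum. Gm13339, Gm13341 and Gm4076, the less similar copies of mt-Nd2, mt-Co2 and mt-Nd5, did not exceed 7.2 TPM in any library. Gm13340 stood at 2216 ± 660 TPM in KO and 1887 ± 641 TPM in WT. The table cannot show which reads of these sums came from the mitochondrion.

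**Figure D3:**
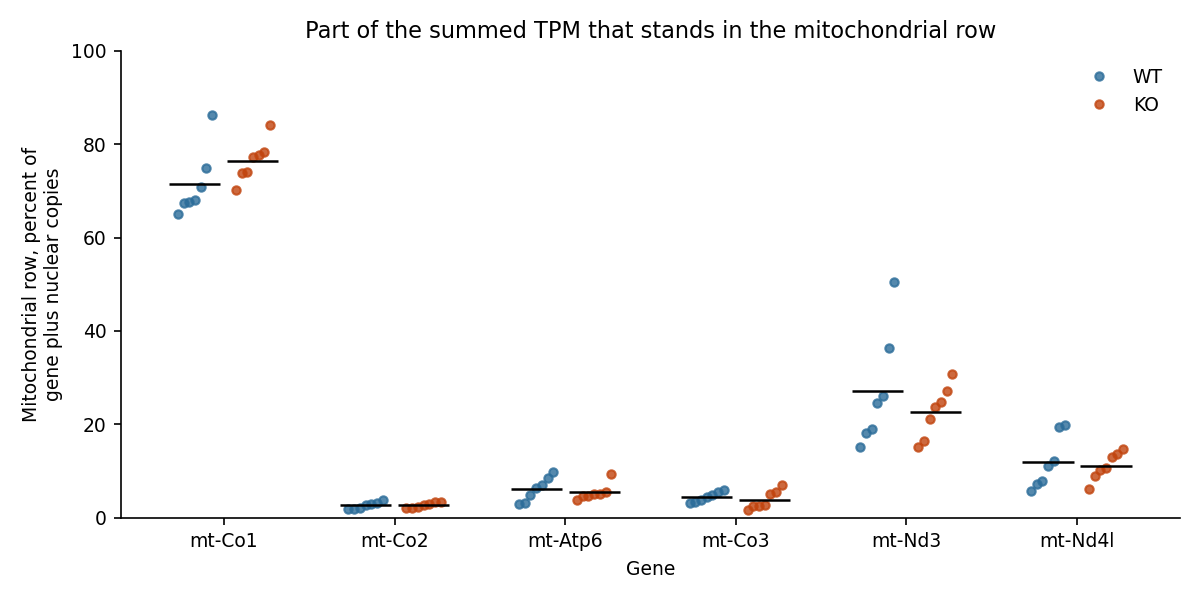
Percent of the summed TPM of a gene and its nuclear copies that stands in the mitochondrial row, for the 6 genes with a copy above 7.2 TPM, in 7 WT and 7 KO libraries (points; black lines are group means). mt-Co2, mt-Atp6 and mt-Co3 keep under 10% in every library, and mt-Nd3 spreads from 15.1% to 50.6%.

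Summed with their copies, the low rows were among the most abundant mRNAs. mt-Co2 and its copies came to 31595 ± 7166 TPM in KO and 22995 ± 7667 TPM in WT (n = 7 each, SD), and mt-Co3 and its copy to 24694 ± 7353 and 23432 ± 7698 TPM. mt-Atp6 and its copy came to 18431 ± 5157 and 13446 ± 5095 TPM. The ratio of mt-Atp8 to mt-Atp6, whose bases lie on 1 mRNA, was 44.96 ± 11.9 in KO and 43.9 ± 25.9 in WT for the mitochondrial rows. With the copies added it was 2.30 ± 0.13 and 2.15 ± 0.34.

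KO was compared with WT by genotype label. Limma called 0 of the 15 members changed at an adjusted p under 0.05, against 0.0204% of all 14719 genes tested (3 genes). The groups overlapped for all 15, while 0.319% of all genes had groups that did not overlap. Mean levels were nonetheless mostly higher in KO. The log2 fold change was above 0 for 11 of 15 members, all of them mRNAs, against 54.6% of all genes. The mRNAs were high or low together by library, so these are not 11 separate observations. Its median was 0.42 over the 15 members and 0.04 over all genes tested. At an unadjusted limma p under 0.05, 2 members were higher in KO (4.67% of all genes) and 0 were lower in KO (6.74% of all genes).

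**Figure D4:**
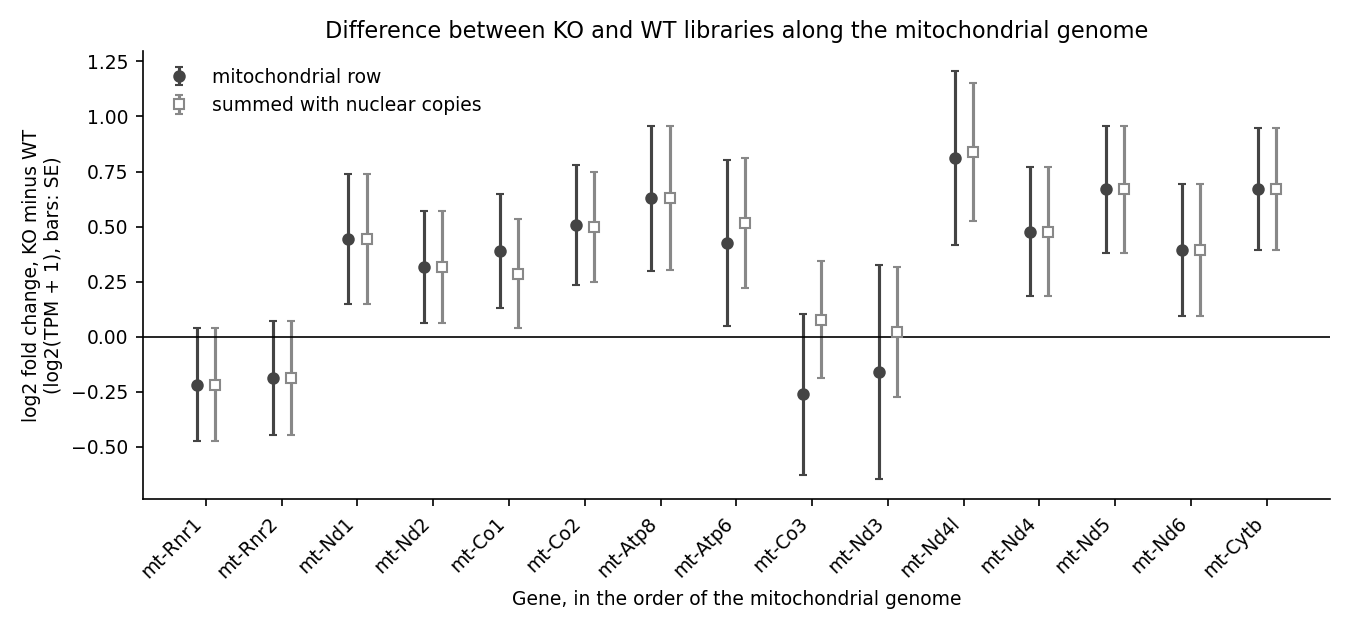
Log2 fold change of KO against WT on the log2(TPM + 1) scale with its SE, for the 15 measured members in genome order, as deposited (filled) and summed with nuclear copies (open). Values lie above 0 for 11 members as deposited; the rRNAs lie below 0 in both cases, and mt-Co3 and mt-Nd3 move from below to above 0 when the copies are added.

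The 2 members with the smallest p were mt-Cytb and mt-Nd5, neighbours on the heavy-strand transcript apart from mt-Nd6 and a tRNA on the other strand. mt-Cytb had a log2 fold change of 0.67 ± 0.28 (SE; 95% interval 0.08 to 1.26; limma unadjusted p = 0.029, adjusted p = 0.40). 3 KO libraries lay above every WT library and 4 WT libraries below every KO library. mt-Nd5 had a value of 0.67 ± 0.29 (SE; 95% interval 0.05 to 1.29; limma unadjusted p = 0.035, adjusted p = 0.41), with 2 KO libraries above all WT and 4 WT libraries below all KO. Neither passed the test across all genes. mt-Nd4l had the highest fold change, 0.81 ± 0.39 (limma adjusted p = 0.45), and 0.84 ± 0.31 with Gm10222 added (limma unadjusted p = 0.018, adjusted p = 0.35). mt-Atp8 stood at 0.63 ± 0.33, mt-Co2 at 0.51 ± 0.27, mt-Nd4 at 0.48 ± 0.29, mt-Nd1 at 0.44 ± 0.30 and mt-Atp6 at 0.42 ± 0.38 on the same scale. The fold changes of mt-Nd6, mt-Co1 and mt-Nd2 were 0.39, 0.39 and 0.32.

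The 4 members with values below 0 were both rRNAs, mt-Co3 and mt-Nd3. mt-Rnr1 had a log2 fold change of -0.22 ± 0.26 and mt-Rnr2 of -0.19 ± 0.26 (SE; limma adjusted p = 0.73 and 0.76). mt-Co3 stood at -0.26 ± 0.37 and mt-Nd3 at -0.16 ± 0.49 on the same scale (limma adjusted p = 0.77 and 0.90). With the nuclear copies added, these last 2 were 0.08 ± 0.27 and 0.02 ± 0.29. All 4 of these 95% intervals include 0.

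Leaving out the 3 libraries poor in B-cell transcripts, values in KO stood further above WT. The median over the 15 members was 0.68, and 14 of 15 were above 0 (48.8% of all genes in that fit). At an unadjusted limma p under 0.05, 10 were higher (3.29% of all genes). Here too the members are not separate observations. The smallest limma adjusted p was 0.18 (mt-Nd4l, log2 fold change 1.33). The 3 libraries had mitochondrial mRNA shares of 13.7% (KO replicate 7), 13.4% (WT replicate 4) and 12.5% (WT replicate 7), and those 2 were the highest of WT. In the other libraries the share ran from 4.46% to 9.75% in WT and from 7.69% to 16.8% in KO. The same 3 libraries also had the highest adipocyte marker sums of all libraries, at 64517 (KO replicate 7), 66864 (WT replicate 4) and 62819 TPM (WT replicate 7). Their skeletal muscle sums were 56.0, 24265 and 7150 TPM in that order. Which of these traits goes with their mitochondrial shares was not tested. Markers of several cell types also differed in mean between the groups. All 10 adipocyte markers and all 10 skeletal muscle markers had a lower mean in KO, with muscle sums of 23.99 to 7802 TPM in KO and 36.8 to 24265 TPM in WT (Myh1 at 0 in a library). Red blood cell markers had a higher KO mean for 0 of 6 genes, adipose progenitor markers for 1 of 6, macrophage markers for 2 of 8 and brown and beige adipocyte markers for 4 of 8 (Ucp1 and Elovl3 at 0 in a library). The KO mean was higher for 8 of 8 B-cell markers, 8 of 8 T-cell markers and 6 of 6 endothelial markers. The groups overlapped for every one of the marker genes, and the share of all genes with a higher KO mean was not taken. These means include KO replicate 7 and WT replicates 4 and 7, whose summed T-cell markers were also the lowest, at 27.4, 7.63 and 16.0 TPM. Summed T-cell markers ran from 27.4 to 1022 TPM in KO and from 7.63 to 1041 TPM in WT, endothelial markers from 250.6 to 444.8 and from 228.8 to 403.0 TPM, and red blood cell markers from 1542 to 4434 and from 1458 to 8227 TPM. With the adipocyte marker score as a covariate, the median over the 15 members was 0.66 (-0.02 over all genes), 8 were higher at an unadjusted limma p under 0.05 (4.52% of all genes) and the smallest adjusted p was 0.18. With the muscle score the median was 0.48 (0.02 over all genes), with 3 such members (2.93% of all genes). Library weights gave 7 such members, leaving out WT replicate 7 gave 5, and leaving out WT replicate 4 or KO replicate 3 gave 4. Quantile normalization, leaving out WT replicate 9 and adding the nuclear copies gave 3 each. Other fits gave 0 such members: median-ratio scaling (median 0.40), and leaving out KO replicate 2 or 7 or WT replicate 3, 5 or 6. The replicate block also gave 0, with a median of 0.27 (0.13 over all genes). There 1 member was lower at an unadjusted limma p under 0.05. The share of all genes at this level was not taken for these fits. Fewer cells of a type and less RNA per cell cannot be told apart in bulk tissue, and the part of these cell types in the mitochondrial difference was not tested beyond the fat and muscle fits. Library weights were the 1 alternative that called a member: mt-Nd4l, with a log2 fold change of 1.17 and a limma adjusted p of 0.028, in a fit that called 823 genes (5.59% of all).

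A ratio between members cancels the scale of a library. It would not cancel differences between libraries in rRNA depletion or in selection of polyadenylated RNA, and which was used is not given. Both rRNAs together held 0.065% ± 0.016 of all TPM in KO and 0.077% ± 0.028 in WT (SD). Of 6 ratios, chosen by position and strand, 2 passed an exact permutation test (2-sided, over all splits of 14 libraries, Benjamini-Hochberg over the 6). The large rRNA was lower against mt-Co1 in KO. mt-Rnr2 over mt-Co1 ran from 0.0060 over 0.0076 to 0.0105 in KO and from 0.0084 over 0.0122 to 0.0147 in WT. On the log2 scale KO was lower by a difference of -0.58 (exact permutation p = 0.0064, adjusted p = 0.038, n = 7 each). The groups overlapped, and the KO median of 0.0076 lay below the lowest WT value of 0.0084. The second was the strand pair: mt-Nd6 over mt-Nd5 ran from 0.89 over 1.14 to 1.29 in KO and from 1.15 over 1.28 to 1.75 in WT. Its log2 difference was -0.27 (exact permutation p = 0.014, adjusted p = 0.042, n = 7 each).

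**Figure D5:**
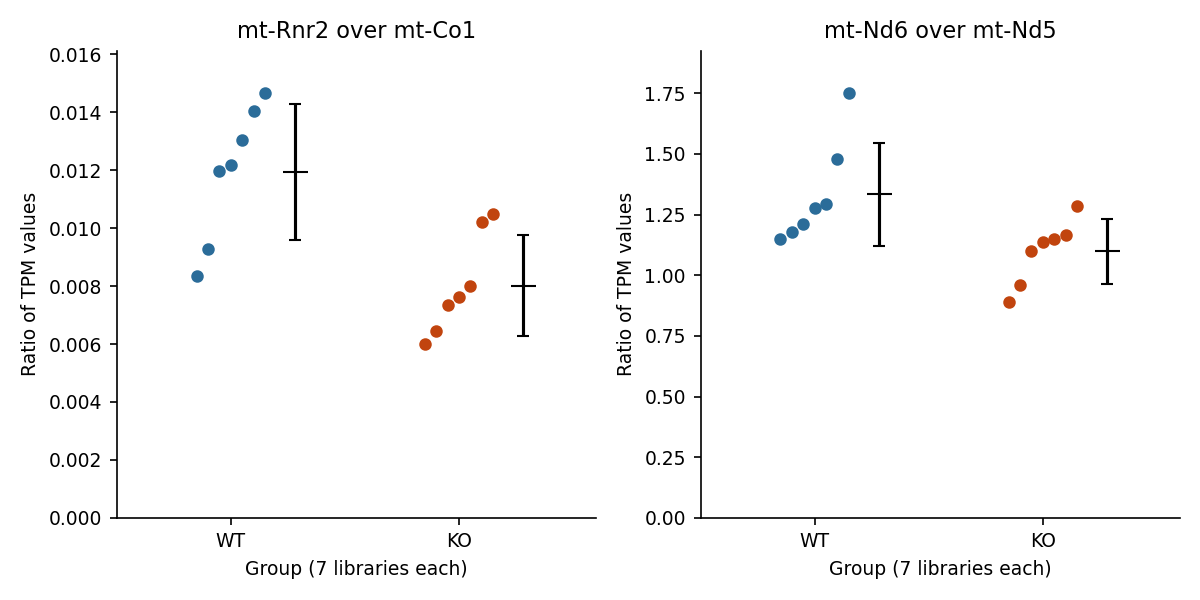
Ratio of TPM values of mt-Rnr2 to mt-Co1 (left) and of mt-Nd6 to mt-Nd5 (right) in each of 7 WT and 7 KO libraries; the bars beside the points are mean and SD. Both axes start at 0, and KO lies lower in both panels with overlapping groups.

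The differences kept their direction with any 1 library left out, at -0.66 to -0.51 for mt-Rnr2 over mt-Co1 and -0.31 to -0.21 for mt-Nd6 over mt-Nd5, while the calls did not always hold. With the nuclear copies added to mt-Co1 and mt-Nd5, the differences were -0.47 and -0.27 and the adjusted exact permutation p was 0.080 for both. The mt-Co1 sum takes Gm29216, which covers only part of the gene, at its full TPM. For mt-Nd6 over mt-Nd5 the unadjusted exact permutation p stayed at 0.014. Its adjusted p rose because the unadjusted exact permutation p of mt-Rnr2 over mt-Co1 rose to 0.027. With any of KO replicates 3 to 6 or WT replicates 5 to 7 left out, neither passed, and leaving out KO replicate 1, KO replicate 7 or WT replicate 8 also ended the call of the mt-Nd6 ratio (adjusted exact permutation p between 0.055 and 0.11 in these cases). The sum of both rRNAs per 1000 TPM of mitochondrial mRNA was 5.54 ± 0.97 in KO and 9.16 ± 2.63 in WT (n = 7 each, SD). WT replicates 3, 5 and 6, whose mRNA shares were the lowest of WT, had the highest values of it (10.2, 12.4 and 12.2), and WT replicates 8 and 9 lay within the KO range at 6.60 and 5.50.

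The other ratios did not pass. mt-Nd4l over mt-Nd4 differed by 0.34 on the log2 scale (exact permutation p = 0.19), mt-Co1 over mt-Cytb by -0.28 (exact permutation p = 0.12) and mt-Atp8 over mt-Atp6 by 0.20 (exact permutation p = 0.58). For the 2 rRNAs, mt-Rnr2 over mt-Rnr1 was 0.558 ± 0.059 in KO and 0.546 ± 0.055 in WT (n = 7 each, SD), with an exact permutation p of 0.70.

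Among the nuclear genes for the same complexes, most fold changes lay below 0 and none passed the test. Their lists were chosen with earlier results known. Of all 14719 genes tested, 54.6% had log2 fold changes above 0 and 0.0204% were called. Of 37 nuclear complex I subunits 0 were called and 31 had log2 fold changes below 0, with a median of -0.14, which was 0.05 under quantile normalization and 0.08 with the adipocyte covariate. Ndufa9 had -0.34 ± 0.18, Ndufs6 -0.26 ± 0.14 and Ndufa10 -0.29 ± 0.17 on that scale. For complex III 7 of 9 were below 0 (median -0.07), for complex IV 8 of 14 (median -0.12) and for complex V 11 of 16 (median -0.11), with 0 called. These medians also turned above 0 under quantile normalization (0.07, 0.06 and 0.02) and with the adipocyte covariate (0.14, 0.09 and 0.06). Uqcrc1, a core protein of complex III, stood at -0.33 ± 0.17 and Uqcrh, its hinge protein, at 0.21 ± 0.12. Cox6a1 and Cox5b, structural subunits of the oxidase, stood at -0.42 ± 0.24 and -0.26 ± 0.18, and Atp5d, in the stalk of ATP synthase, at -0.39 ± 0.15 (limma adjusted p = 0.37).

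Set against each other, mitochondrial subunits far exceeded nuclear subunits in TPM per gene. For complex III, mt-Cytb stood at 34.8 ± 8.7 times the mean of the nuclear subunits in KO and 21.7 ± 8.3 times in WT (n = 7 each, SD), with 5 KO libraries above all WT. For complex I, copies included, the ratio was 31.97 ± 8.67 in KO and 22.1 ± 6.8 in WT. For complex IV it was 58.3 ± 20.3 and 41.2 ± 9.3, and for complex V 64.7 ± 17.5 and 41.0 ± 19.4. The complex IV sum takes Gm29216, which covers only part of mt-Co1, at its full TPM. The groups overlapped in all 4 ratios, and KO replicate 3 was lowest of KO in each. Ratios over several members are given without a test.

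Genes that act on the mitochondrial genome also gave 0 calls, where 0.0204% of all genes were called. Of 18 genes for its transcription and replication, 15 had log2 fold changes above 0 (54.6% of all genes), with a median of 0.15 (0.04 over all genes). Mterf3 and Mterf1b, of the family of mitochondrial transcription terminators, stood at 0.32 ± 0.13 and 0.38 ± 0.15 (limma adjusted p = 0.38 for both), and the polymerase subunits Polg2 and Polg at 0.27 ± 0.12 and 0.22 ± 0.12. Of 22 genes for RNA processing and stability 12 were above 0 (54.6% of all genes) and 10 below. Their median of 0.005 took either sign across the alternatives. Hsd17b10, a subunit of the enzyme that cuts the 5′ ends of tRNAs, stood at -0.52 ± 0.20, and Elac2, which cuts their 3′ ends, at -0.21 ± 0.09. Pnpt1, an RNA-degrading exonuclease, stood at 0.31 ± 0.14 and Fastkd1, of a family of mitochondrial RNA-binding proteins, at 0.31 ± 0.14 (limma adjusted p between 0.38 and 0.43 for these 4).

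The translation side was mixed. Of 17 tested translation factors 9 were above 0 (54.6% of all genes), with a median of 0.02 that also took either sign across the alternatives. Mtif2, 1 of the initiation factors, stood at 0.35 ± 0.16 and Tufm, 1 of the elongation factors, at -0.23 ± 0.13. Mtfmt, which formylates the initiator tRNA, stood at 0.33 ± 0.15 and Gtpbp3, which modifies tRNAs, at 0.23 ± 0.13. Of 78 proteins of the mitochondrial ribosome 56 were below 0, with a median of -0.10, and 10 were lower and 0 higher at an unadjusted limma p under 0.05 (12.8% of them, against 6.74% of all genes for lower). Mrpl45, Mrpl17, Mrpl14 and Mrpl30 had values of -0.25 ± 0.09, -0.46 ± 0.17, -0.41 ± 0.15 and -0.36 ± 0.14 (limma adjusted p = 0.33, 0.33, 0.35 and 0.37). Of 8 tested regulators of mitochondrial biogenesis 7 were above 0 (54.6% of all genes), with a median of 0.21. Ppargc1b, a coactivator of that programme, stood at 1.94 ± 0.52 TPM in KO and 1.26 ± 0.44 TPM in WT (n = 7 each, SD) and a log2 fold change of 0.39 ± 0.16 (limma adjusted p = 0.41), and its relative Pprc1 at 10.4 ± 2.9 and 7.44 ± 3.27 TPM.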

How the data were processed

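RNA of adipose tissue from 14 mice was measured. The authors deposited 1 table of TPM values for all libraries, scaled to 1 common total per library. Which program made the values, and how strand and reads matching several loci were handled, is not given in the sources used here. The tool Bowtie 0.12.2 and builds mm8 and mm9 are named, per the submitters' processing notes, without a role. TPM keeps no depth, so no count model or counting interval was used.

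Same-name rows were summed. A gene was kept when 7 or more libraries had at least 1 TPM, and the 14719 kept genes were fitted on log2(TPM + 1) with limma-trend (limma 3.58.1, R 4.3.3; robust prior, 2-sided), with Benjamini-Hochberg adjustment over all of them and a threshold of 0.05. Fold changes are KO minus WT on that scale, which understates low genes. Nuclear copies were found with blastn 2.17.0 in GENCODE M21. Members, lists and named genes (all measured members, and up to 4 genes of smallest p per list) were chosen with earlier results of these data known. The fit was tested on simulated data. Alternatives were pseudocounts of 0.1 and 5, other filters and scalings, covariates, library weights, a replicate block, leaving out libraries, and sums with the copies. Same-numbered libraries were not treated as pairs. Lists were described without a list test. Figures used matplotlib 3.10.9.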

Additional observations from a re-analysis of the deposited data

Results flagged for a closer look

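In 80 groups of 7 values, 5 held a library far from the rest, where chance alone gives about 1 in 20. Among KO libraries, replicate 4 had the highest share of mt-Atp6 in its mitochondrial row, 9.30% of the gene and its copy, where the other KO libraries had 3.90% to 5.63% and WT libraries 3.05% to 9.89%. mt-Nd2 made up 99.87% of itself and its copy in KO replicate 1, below the other KO libraries at 99.94% or more, and its copy Gm13339 stood at 5.59 TPM there and at 2.81 TPM or less in the rest of KO. Gm13339 was also far above the rest of WT in WT replicate 7, at 7.20 TPM against 3.51 TPM or less. Gm13341, a copy of mt-Co2, stood at 1.45 TPM in WT replicate 6 and at 0.41 TPM or less in the other WT libraries. None of the 15 measured members and none of the 6 ratios had such a library.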

How the results depend on the processing

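The count of members called higher was 0 in 27 of 28 alternatives and 1 with library weights; the count called lower was 0 in all 28. The mitochondrial mRNA share was 2.99 percentage points higher in KO, 2.16 to 3.77 with 1 library left out, 4.35 without the 3 libraries poor in B-cell RNA and 4.93 with the copies. mt-Co3 changed sign with the copies (0.078). mt-Nd3 changed sign with the copies (0.021), without those 3 libraries (0.12), with library weights (0.43) and with 1 library left out (range -0.38 to 0.11). Without the 3 libraries mt-Rnr1 was 0.0097 and mt-Rnr2 0.028, and with library weights 0.026 and 0.11. The log2 difference of mt-Nd6 over mt-Nd5 was no longer past the threshold without the 3 libraries (-0.32), under the replicate block (-0.39) and with the copies (-0.27), and ran from -0.31 to -0.21 with 1 library left out. That of mt-Rnr2 over mt-Co1 was lost likewise (-0.63, -0.76 and -0.47; -0.66 to -0.51). The difference of mt-Rnr2 over mt-Rnr1, 0.03, was -0.023 under the block and ran from -0.013 to 0.063 with 1 library left out. For the mt-Nd6 ratio with the copies, the unadjusted exact permutation p was unchanged at 0.014 and only its adjustment differed. Otherwise, except for fewer libraries in some fits, the cause of these changes was not tested. The block used the 5 replicate numbers that both groups share; its exact test cannot go below 0.0625. Same-numbered libraries deviated together in some cases only (correlations -0.67 to 0.80), and 3 of 10 libraries correlated best with their own number, so the pairing rests on a number alone. In limma the block left 0 members and 0 of all genes called, against 3 without it; over the other alternatives 0 to 19 genes were called, and 823 with library weights (248 higher). Of the calls, 13 of 19 were higher under quantile normalization, 3 of 8 under median-ratio scaling and 2 of 6 after rescaling over nuclear genes, against 0 of 3. Scalings moved the median of all genes by less than 0.1. Rescaling over nuclear genes counted the nuclear copies as nuclear. Adding the copies was chosen after seeing the data.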
